A study of Mus musculus with 9 samples.

Results

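The genes described here are 33 listed markers of Kupffer cells and other macrophages, followed in liver RNA of 9 mice hybridised to Affymetrix gene arrays, 1 array per mouse. They were taken from a list of gene names chosen with earlier results of these data known, as were the other lists below. All 33 of 33 were measured, each by 1 probe set, among 19938 genes in all. The mice formed 3 groups of 3. Wild-type mice were C57BL/6J. Clock-D19 mutants carried a form of Clock that lacks part of its activation region. Rescue mice were Clock-D19 mutants given wild-type Clock in the pLIVE vector, at a dose of 35 µg DNA, by hydrodynamic injection into the tail vein at week 10. Every group ate a 45% fat diet from 10 weeks of age for 5 weeks, was kept on a cycle of 12 h light then 12 h dark, and was killed at zeitgeber hour 10. The pLIVE vector is built for expression in liver and hydrodynamic delivery reaches mainly hepatocytes. Which cells took up or expressed the plasmid in these livers was not examined. The labels describe no injection of the other groups, so injection and supplied Clock cannot be told apart, and they do not give the sex of the mice or the background on which the mutation was kept.

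Kupffer cells are the resident macrophages of the liver. They sit in the sinusoids, bind complement-coated and antibody-coated particles, take up aged red cells and lipoproteins, and respond to bacterial products from the gut. Their survival depends on signals through the CSF1 receptor, their genes are opened by the factor PU.1, and their identity is kept up by signals from sinusoidal endothelium, stellate cells and hepatocytes. In whole liver RNA, fewer macrophages and less marker RNA per macrophage cannot be told apart. All levels below are RMA values on a log2 scale, on which 1 unit is a doubling. They are compared between arrays for the same gene and not between genes, because each probe set has its own brightness.

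In the Clock-D19 livers 20 of these 33 marker genes fell against wild type, none rose and 13 were not called (limma, adjusted p under 0.05 over all genes, n = 3 per group). Across all genes 9.02% fell and 6.37% rose. The median difference of the 33 genes was -0.53, against 0.07 for all genes. Mutant and wild-type values did not overlap, with the mutants lower, for 21 members, against 15.4% of all genes. Of the 20 calls, 14 (Vsig4, Msr1, Adgre1, Cybb, Fcer1g, Cd68, Timd4, Cd163, Cd5l, Csf1r, Clec1b, Tlr4, Mertk and Slc40a1) were kept in every alternative in which the gene was fitted. Tlr4 was not fitted under the filter on the dimmest 40% of genes, and the other 13 were fitted in all. The complement receptor gene Vsig4 had the largest difference of the 33, 4.40-fold, whereas the pore-forming protein gene Mpeg1 did not pass. In the injected mutants 2 members were higher and 1 lower than in the other mutants, against 2.61% and 1.2% of all genes. Against wild type 11 members were lower there, and 1.35% of all genes were.

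**Figure D1:**
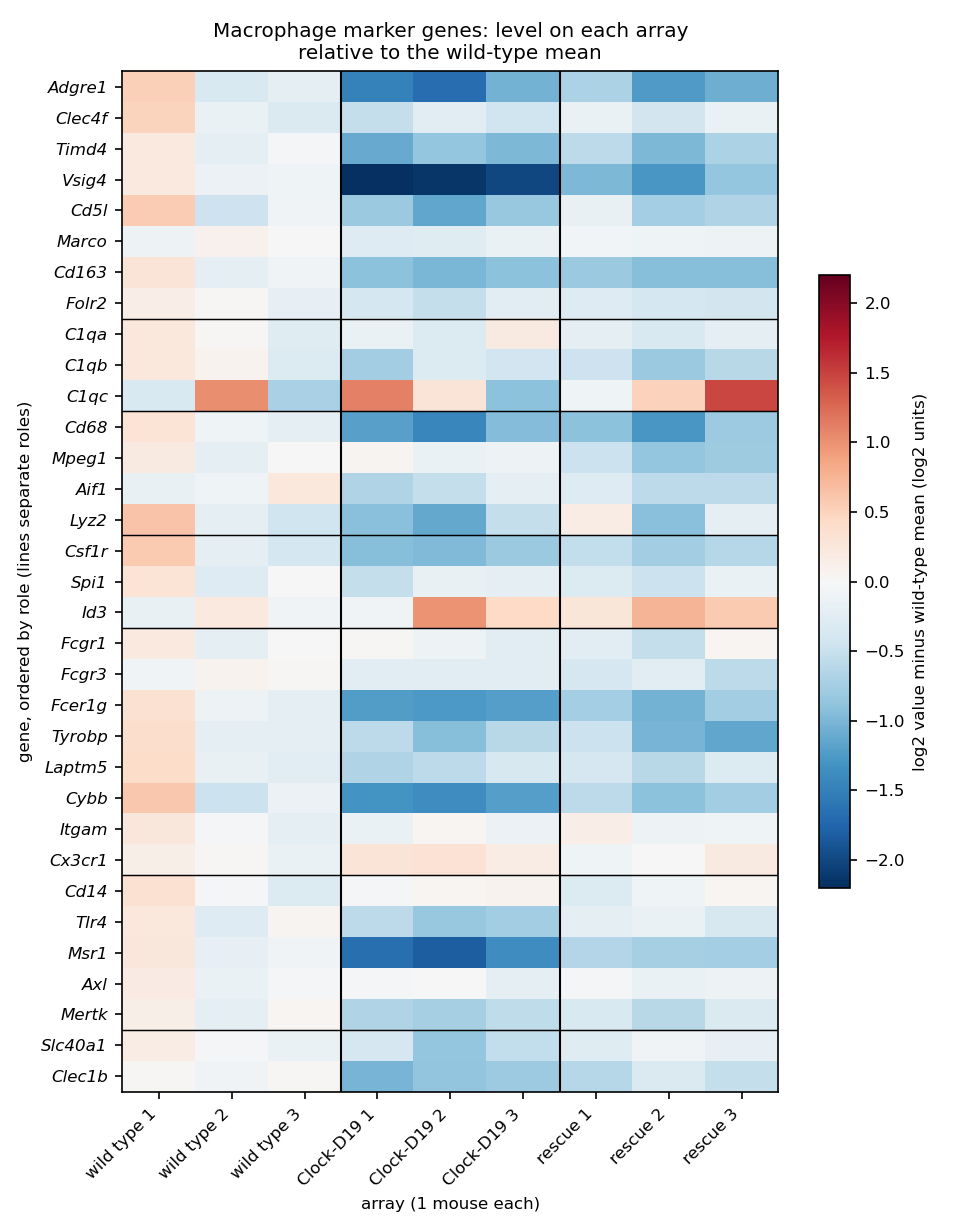
Heat map of the 33 macrophage marker genes (rows, ordered by role, with lines between roles) on the 9 arrays (columns), coloured by log2 value minus the wild-type mean of the gene. Blue marks lower values: Vsig4 is lowest in the 3 Clock-D19 columns, wild type 1 is the highest wild-type array for 28 of the 33 genes, and C1qc varies without regard to group.

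Background was read from 1027 olfactory receptor genes, which liver does not use. Their 95th percentile was 5.84 in wild type, 5.91 in mutant and 5.91 in rescue, and a gene under that level in a group is called dim there. By this measure 29 of the 33 members stood above background in at least 1 group. Aif1, Itgam, Cd14 and Tlr4 were dim in every group, so their differences may be compressed. The genes that define Kupffer cells among other liver cells, Clec4f, Timd4, Vsig4 and Adgre1, were above it in all 3 groups. None of 13 measured neutrophil genes and none of 5 measured monocyte genes was above it in any group. Among wild-type mice, replicate 1 was the highest array for 28 of the 33 members, while 32.7% of all genes were highest there. Without that mouse 15 members fell in the mutants and 5 were lower in rescue than in wild type.

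Sequences upstream of the start sites were read for members that a promoter table covers, because many of these genes moved together. RefSeq entries (build GRCm38.p6) of 24 members were used. Csf1r and Cd14 were left out before the search, whether or not they had an entry. The 250 bases before each start were searched on both strands for the E-box CACGTG, the letters that CLOCK and BMAL1 bind, and for GAGGAA, the core of the PU.1 motif. CACGTG stood in the window of 0 of the 24 members and in 6.02% of 32851 promoters of the same length. GAGGAA or its reverse complement stood in 14 of the 26 entries of these members, from 13 genes, and in 23.3% of all promoter entries. Of the 13 genes 6 fell in the mutants and 7 were not called. Of the 24 members searched 14 fell and 10 were not called. A match is a run of letters and not a measured binding site. The windows printed here, with capitals marking GAGGAA or TTCCTC, are those of 4 resident Kupffer cell genes that fell, the lysosomal gene Cd68, which fell, and Mpeg1, which did not pass. Vsig4 lies at chrX:96293439-96293688 (minus strand), Timd4 at chr11:46810549-46810798 (plus), Cd5l at chr3:87357631-87357880 (plus), Cd163 at chr6:124304401-124304650 (plus), Cd68 at chr11:69666171-69666420 (minus) and Mpeg1 at chr19:12460520-12460769 (plus). Vsig4 held 2 such runs, Cd5l and Cd68 held 1 each, and Timd4, Cd163 and Mpeg1 held 0.
Vsig4: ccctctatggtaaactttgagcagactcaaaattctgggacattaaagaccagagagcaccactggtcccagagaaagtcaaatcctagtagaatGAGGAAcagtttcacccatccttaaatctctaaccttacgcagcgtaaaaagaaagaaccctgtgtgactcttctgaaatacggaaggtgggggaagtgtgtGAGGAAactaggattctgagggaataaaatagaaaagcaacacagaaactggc
Timd4: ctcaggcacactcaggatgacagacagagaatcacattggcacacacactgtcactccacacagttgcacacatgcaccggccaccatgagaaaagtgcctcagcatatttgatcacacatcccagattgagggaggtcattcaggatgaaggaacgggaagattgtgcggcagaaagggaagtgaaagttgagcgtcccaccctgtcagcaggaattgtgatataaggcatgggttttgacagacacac
Cd5l: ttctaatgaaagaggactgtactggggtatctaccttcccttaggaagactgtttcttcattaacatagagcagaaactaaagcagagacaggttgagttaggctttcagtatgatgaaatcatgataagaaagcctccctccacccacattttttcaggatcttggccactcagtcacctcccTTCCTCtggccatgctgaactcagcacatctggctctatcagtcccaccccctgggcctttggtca
Cd163: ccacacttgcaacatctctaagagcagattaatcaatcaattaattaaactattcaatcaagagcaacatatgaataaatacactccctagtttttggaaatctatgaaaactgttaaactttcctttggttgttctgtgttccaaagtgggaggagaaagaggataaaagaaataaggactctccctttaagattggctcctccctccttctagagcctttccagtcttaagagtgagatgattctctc
Cd68: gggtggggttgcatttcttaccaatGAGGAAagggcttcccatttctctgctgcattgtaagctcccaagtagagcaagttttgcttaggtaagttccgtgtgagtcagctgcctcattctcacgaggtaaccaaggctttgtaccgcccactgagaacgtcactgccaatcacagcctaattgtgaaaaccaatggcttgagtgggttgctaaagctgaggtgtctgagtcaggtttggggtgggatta
Mpeg1: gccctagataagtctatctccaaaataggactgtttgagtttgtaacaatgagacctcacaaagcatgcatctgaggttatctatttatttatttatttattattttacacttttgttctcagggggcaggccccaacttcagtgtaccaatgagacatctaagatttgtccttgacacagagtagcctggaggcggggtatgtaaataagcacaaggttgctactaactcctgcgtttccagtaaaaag

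The resident Kupffer cell genes were the group with the deepest falls. Of 8, 6 fell in the mutants, 2 were not called and the median difference was -0.94. Vsig4, whose product captures complement-coated bacteria from blood, read 11.51, 11.16 and 11.20 in wild type, 9.02, 9.15 and 9.29 in mutant and 10.30, 10.01 and 10.44 in rescue. The 3 groups were fully separate, with rescue in the middle. Mutants were lower than wild type by 2.14 ± 0.13 (SE, 4.40-fold, limma adjusted p = 8.19e-07). Rescue livers were higher than mutants by 1.10 ± 0.13 (2.14-fold, adjusted p = 0.00105) and differed from wild type by -1.04 ± 0.13 (adjusted p = 9.02e-04). Both comparisons of rescue share arrays with the first, so the 3 differences are not independent.

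Adgre1 encodes F4/80, the adhesion receptor used to stain mouse macrophages. It read 8.52, 7.67 and 7.81 in wild type, 6.52, 6.33 and 6.96 in mutant and 7.30, 6.75 and 6.92 in rescue. Mutant and wild-type values did not overlap, whereas rescue values overlapped the mutants. The mutant difference was -1.40 ± 0.21 (limma adjusted p = 6.78e-04) and the rescue difference from wild type -1.01 ± 0.21 (adjusted p = 0.0197). That second call was lost without wild-type replicate 1 (-0.75, adjusted p = 0.0713), without rescue replicate 2 (-0.90, 0.089) or 3 (-0.98, 0.0824), and with a trended and robust prior (adjusted p = 0.051). Rescue and mutant differed by 0.38 ± 0.21 in Adgre1 (adjusted p = 0.317).

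Timd4 encodes a phosphatidylserine receptor of long-lived resident Kupffer cells, and Cd163 the receptor for haptoglobin-bound haemoglobin. Timd4 read 8.0, 7.58 and 7.75 in wild type, 6.67, 6.93 and 6.79 in mutant and 7.21, 6.80 and 7.08 in rescue. Cd163 read 7.79, 7.29 and 7.44, then 6.60, 6.51 and 6.60, then 6.69, 6.58 and 6.58 in the same order of groups. For both genes all wild-type values lay above all others, and the mutant and rescue values overlapped. Timd4 fell by 0.98 ± 0.13 in the mutants (limma adjusted p = 3.63e-04) and stood at -0.75 ± 0.13 in rescue against wild type (adjusted p = 0.0084). Cd163 fell by 0.94 ± 0.12 (adjusted p = 2.47e-04), was lower in rescue by a near-equal amount (-0.89 ± 0.12, adjusted p = 0.00128), and differed by 0.05 between rescue and mutant, with a 95% interval from -0.21 to 0.31.

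Cd5l, a secreted inhibitor of macrophage apoptosis, and Folr2, the folate receptor of resident macrophages, also fell, with larger adjusted p values. The call for Cd5l was kept in every alternative. Cd5l read 7.91, 6.90 and 7.29 in wild type, 6.55, 6.21 and 6.52 in mutant and 7.20, 6.62 and 6.69 in rescue, a mutant difference of -0.94 ± 0.21 (limma adjusted p = 0.00819). Rescue values for Cd5l lay above every mutant value, but neither rescue comparison was called (0.41 ± 0.21 and -0.53 ± 0.21, adjusted p = 0.283 and 0.259). Folr2 read 6.34, 6.21 and 6.01, then 5.81, 5.66 and 5.94, then 5.90, 5.81 and 5.79, and was dim in both mutant groups. Its mutant difference was -0.39 ± 0.11 (adjusted p = 0.034). The call for Folr2 was lost with the 2 groups alone (0.052), and without wild-type replicate 1 (-0.31, 0.131) or 2 (-0.38, 0.0821) or mutant replicate 1 (-0.39, 0.0779) or 2 (-0.31, 0.114). Rescue against wild type for Folr2 was -0.35 ± 0.11 (adjusted p = 0.143).

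Clec4f and Marco were not called. Clec4f, a lectin that in mouse liver is made by Kupffer cells alone, read 8.14, 7.50 and 7.33 in wild type, 7.13, 7.41 and 7.22 in mutant and 7.51, 7.25 and 7.51 in rescue. Its groups overlapped, and the mutant difference was -0.40 ± 0.17 (limma adjusted p = 0.128, 95% interval -0.76 to -0.04). Marco, a scavenger receptor, ranged from 5.79 to 6.01 in wild type, from 5.63 to 5.76 in mutant and from 5.80 to 5.85 in rescue, and was dim in both mutant groups. It differed by -0.23 ± 0.10 in the mutants (adjusted p = 0.14), with a call only when quantile normalization was repeated (-0.31, 0.0478).

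Vsig4 and Clec4f, a pair chosen after their values were seen, were also set against each other on each array, as a description with no test. The log2 difference Vsig4 minus Clec4f was 3.38, 3.66 and 3.87 in wild type, 1.89, 1.74 and 2.07 in mutant and 2.80, 2.76 and 2.93 in rescue. No group overlapped another, with mutant lowest and rescue in the middle.

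**Figure D2:**
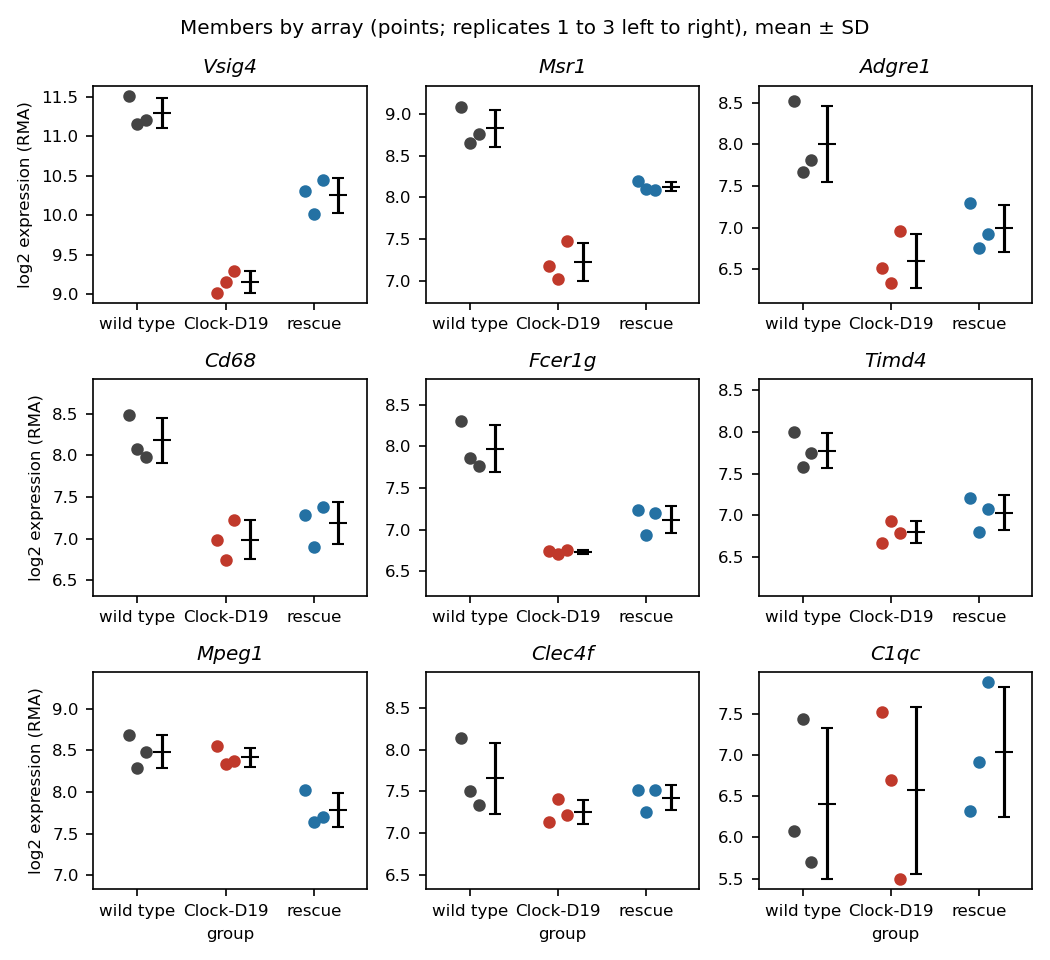
RMA log2 values of 9 genes on each array (points, replicates 1 to 3 from left to right; each gene has its own axis), with the group mean ± SD beside them (n = 3). Vsig4 and Msr1 separate all 3 groups, Mpeg1 is lower in rescue alone, and C1qc spreads from 5.50 to 7.88 with full overlap of the groups.

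Of the complement C1q chains 1 of 3, C1qb, was called in the mutants (median -0.08). Their genes lie side by side on chromosome 4, with 3600 bases between C1qb and C1qc and 2979 between C1qc and C1qa. The 3 chains assemble into the recognition unit of the classical complement pathway, and in liver macrophages are their main source. C1qb read 7.40, 7.24 and 6.87 in wild type, 6.41, 6.87 and 6.75 in mutant and 6.71, 6.36 and 6.56 in rescue. Mutant and wild-type values met at 6.87, and the difference was -0.49 ± 0.15 (limma adjusted p = 0.0417); for rescue against wild type it was -0.63 ± 0.15 (adjusted p = 0.0451). Both C1qb calls were fragile. The first was lost with the 2 groups alone (0.0525) and without mutant replicate 1 (-0.36, 0.159) or 3 (-0.53, 0.0673), rescue replicate 3 (0.0571) or wild-type replicate 1 (-0.38, 0.153) or 2 (-0.46, 0.106). The second was lost without mutant replicate 3 (0.0583), rescue replicate 1 (-0.71, 0.057), 2 (-0.54, 0.157) or 3 (-0.64, 0.122) or wild-type replicate 1 (-0.52, 0.174) or 2 (-0.59, 0.125). With the replicate block they were at 0.0527 and 0.0611.

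C1qa read 6.57, 6.36 and 6.08 in wild type, 6.20, 6.04 and 6.53 in mutant and 6.12, 6.00 and 6.12 in rescue, with overlap between the groups and a mutant difference of -0.08 ± 0.14 (limma adjusted p = 0.738). C1qc stood apart from every other member by its spread. It read 6.08, 7.44 and 5.70, then 7.52, 6.69 and 5.50, then 6.32, 6.91 and 7.88, and its pooled SD within groups was 0.91, against a median of 0.20 over the members. Its mutant difference was 0.16 ± 0.49 (adjusted p = 0.852), with a 95% interval from -0.88 to 1.20 that leaves both a fall like that of C1qb and a rise possible.

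Of 4 genes used to mark macrophages in general, 3 fell. Cd68, a glycoprotein of late endosomes, read 8.48, 8.08 and 7.98 in wild type, 6.99, 6.75 and 7.22 in mutant and 7.28, 6.90 and 7.38 in rescue. The wild-type arrays were above all others, and mutants were 2.28-fold lower (-1.19 ± 0.16, limma adjusted p = 3.05e-04). Rescue stayed below wild type in Cd68 by 0.99 on the log2 scale (-0.99 ± 0.16, adjusted p = 0.00422) and differed from mutant by 0.20 ± 0.16 (adjusted p = 0.491). Lyz2, the lysozyme of myeloid cells, read 9.19, 8.37 and 8.12, then 7.64, 7.44 and 8.03, then 8.73, 7.64 and 8.36. Its mutant difference of -0.85 ± 0.27 barely passed (adjusted p = 0.0475). The call for Lyz2 was lost with quantile normalization repeated (0.0568), with a trended and robust prior (0.184), and without mutant replicate 1 (-0.82, 0.111) or 2 (-0.72, 0.156), rescue replicate 3 (0.062) or wild-type replicate 1 (-0.54, 0.184) or 2 (-0.95, 0.0605). Aif1, the actin-binding protein also called Iba1, was dim throughout, ranging from 5.50 to 5.90 in wild type, 5.00 to 5.45 in mutant and 5.08 to 5.37 in rescue. It was lower by 0.46 on the log2 scale in the mutants (-0.46 ± 0.14, adjusted p = 0.0396), a call lost with array weights (-0.40, 0.0595) and without mutant replicate 1 (-0.36, 0.143) or 2 (-0.43, 0.104), rescue replicate 3 (0.0521) or wild-type replicate 2 (-0.51, 0.0578) or 3 (-0.34, 0.171).

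Mpeg1 was not called in the mutants and was lower in rescue. It encodes a pore-forming protein that kills engulfed bacteria, and read 8.69, 8.29 and 8.48 in wild type, 8.55, 8.34 and 8.37 in mutant and 8.02, 7.64 and 7.70 in rescue. Mutant values lay inside the wild-type range, and every rescue value lay below both other groups. The mutant difference was -0.06 ± 0.13 (limma adjusted p = 0.771, 95% interval -0.34 to 0.21). Rescue was lower than mutant by 0.63 ± 0.13 (-0.63, adjusted p = 0.0199) and differed from wild type by -0.70 ± 0.13 (adjusted p = 0.0105). The first of these Mpeg1 calls was lost without mutant replicate 1 (-0.57, 0.0785) or rescue replicate 2 (-0.56, 0.0752) or 3 (-0.59, 0.0778), and the second without rescue replicate 2 (-0.62, 0.0532) or 3 (-0.65, 0.0554) or wild-type replicate 1 (-0.60, 0.0555). Set against Cd68 on the same array, a pair also picked after its values were seen and given with no test, the Cd68 minus Mpeg1 difference was -0.21, -0.22 and -0.50 in wild type, -1.56, -1.59 and -1.15 in mutant and -0.74, -0.74 and -0.32 in rescue. The mutants lay below both other groups, whereas rescue and wild type overlapped.

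Receptor and transcription factor genes of the lineage gave 1 fall in 3. Csf1r, the receptor through which macrophages receive survival signals, read 8.28, 7.51 and 7.33 in wild type, 6.77, 6.74 and 6.89 in mutant and 7.16, 6.95 and 7.08 in rescue. The 3 groups did not overlap. Mutants were lower by 0.91 (-0.91 ± 0.18, limma adjusted p = 0.00434), and rescue was at -0.64 ± 0.18 against wild type (adjusted p = 0.0882, called without wild-type replicate 3, -0.83, 0.0395). Spi1, which encodes PU.1, ranged from 5.65 to 6.24 in wild type and from 5.41 to 5.78 in mutant, was dim in both mutant groups, and differed by -0.30 ± 0.15 (adjusted p = 0.186). Id3, an inhibitor of helix-loop-helix factors that Kupffer cells need and that other liver cells also make, was the member with the highest mutant difference. It read 6.57, 6.96 and 6.67 in wild type, 6.66, 7.72 and 7.18 in mutant and 7.0, 7.49 and 7.31 in rescue (0.45 ± 0.21 in mutant, adjusted p = 0.162). Id3 was called without mutant replicate 1 (0.72, 0.0241) and with the replicate block (0.45, 0.0321).

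Among Fc receptors, their adaptors and other leukocyte genes, 4 of 8 fell: Fcer1g, Cybb, Tyrobp and Laptm5. Fcer1g, the gamma chain that Fc receptors signal through, read 8.30, 7.86 and 7.76 in wild type, 6.74, 6.71 and 6.75 in mutant and 7.23, 6.93 and 7.20 in rescue. The groups were fully separate, with a mutant difference of -1.24 ± 0.14 (limma adjusted p = 7.96e-05), a rescue difference from wild type of -0.85 ± 0.14 (adjusted p = 0.00402) and 0.38 ± 0.14 between rescue and mutant (adjusted p = 0.128). Cybb, the catalytic subunit of the phagocyte NADPH oxidase, read 8.63, 7.56 and 7.90, then 6.72, 6.66 and 6.82, then 7.46, 7.12 and 7.27, also without overlap. It fell by 1.29 ± 0.20 in the mutants (adjusted p = 7.36e-04). Its rescue differences were 0.55 ± 0.20 from mutant (adjusted p = 0.132, called with the 2 groups alone, 0.0317, and without wild-type replicate 1, 0.0332) and -0.75 ± 0.20 from wild type (adjusted p = 0.065, called in Cybb without wild-type replicate 2, -0.98, 0.0122, and in 3 other alternatives).

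Tyrobp, the adaptor DAP12, and Laptm5, a lysosomal membrane protein of blood cells, fell by less. Tyrobp read 8.59, 7.99 and 8.0 in wild type, 7.62, 7.26 and 7.59 in mutant and 7.72, 7.17 and 7.06 in rescue. Wild type lay above both other groups, which overlapped, with differences of -0.71 ± 0.19 in mutant (limma adjusted p = 0.0192) and -0.88 ± 0.19 in rescue (adjusted p = 0.021). The mutant call for Tyrobp was lost without mutant replicate 2 (-0.59, 0.0789) or wild-type replicate 1 (-0.51, 0.0817), and the rescue call without rescue replicate 2 (-0.81, 0.0877) or 3 (-0.75, 0.107) or wild-type replicate 1 (-0.68, 0.0908). Laptm5 ranged from 7.67 to 8.31 in wild type, 7.24 to 7.56 in mutant and 7.30 to 7.61 in rescue, and its mutant difference was -0.53 ± 0.16 (adjusted p = 0.0331). Without mutant replicate 1 (-0.47, 0.109) or 2 (-0.51, 0.0859) or wild-type replicate 1 (-0.33, 0.132) Laptm5 was not called.

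The other 4 genes of that group were not called in any comparison. The IgG receptor genes Fcgr1 and Fcgr3 differed by -0.10 ± 0.15 and -0.24 ± 0.11 in the mutants (limma adjusted p = 0.665 and 0.141). Fcgr3 was nevertheless separate, at 6.53 to 6.68 in wild type and 6.36 to 6.37 in mutant, and reached -0.40 ± 0.11 in rescue against wild type (adjusted p = 0.0707, called in 3 alternatives). Itgam, the integrin chain CD11b of monocytes and neutrophils, was dim in every group and differed by -0.07 ± 0.13 (adjusted p = 0.728). Cx3cr1, the fractalkine receptor, was the member whose mutant values all lay above wild type, at 6.81 to 6.97 against 6.50 to 6.78 (0.25 ± 0.11, adjusted p = 0.151).

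The receptors for bacterial products, modified lipoproteins and dying cells split into 3 that fell and 2 that were not called. Msr1, a scavenger receptor for modified lipoproteins that sinusoidal endothelium also makes, read 9.08, 8.65 and 8.76 in wild type, 7.17, 7.02 and 7.47 in mutant and 8.19, 8.10 and 8.09 in rescue. As with Vsig4, rescue lay between groups from which it was wholly separate. Msr1 was 3.05-fold lower in mutant than in wild type (-1.61 ± 0.13, limma adjusted p = 6.76e-06), 1.87-fold higher in rescue than in mutant (0.91 ± 0.13, adjusted p = 0.00424) and lower in rescue than in wild type (-0.70 ± 0.13, adjusted p = 0.0115). The last Msr1 call was lost without rescue replicate 3 (-0.69, 0.0526) or wild-type replicate 1 (-0.58, 0.0579).

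Tlr4, the signalling receptor for endotoxin, and Mertk, a receptor for phosphatidylserine-bound ligands on dying cells, fell in the mutants as well. Tlr4 was dim, at 5.68, 5.16 and 5.51 in wild type, 4.87, 4.61 and 4.69 in mutant and 5.25, 5.31 and 5.09 in rescue, and fell by 0.72 ± 0.13 (limma adjusted p = 0.00246). Rescue values of Tlr4 lay above all mutant values, by 0.50 ± 0.13 in the mean; the adjusted p of 0.0529 just missed, and 8 alternatives called it, among them those without wild-type replicate 1 (0.0465) or 2 (0.0366). Mertk read 9.13, 8.81 and 9.05, then 8.33, 8.27 and 8.45, then 8.67, 8.39 and 8.68. It fell by 0.65 ± 0.12 (adjusted p = 0.00235) and was at -0.42 ± 0.12 in rescue against wild type (adjusted p = 0.0882, called in 3 alternatives). Axl, a receptor of the same family, differed by -0.07 ± 0.11 (adjusted p = 0.688, 95% interval -0.31 to 0.16), and Cd14, which hands endotoxin to TLR4 and was dim, by 0.03 ± 0.14 (adjusted p = 0.917).

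Both remaining genes fell in the mutants. Slc40a1 encodes ferroportin, through which macrophages and hepatocytes return iron to blood, and read 8.58, 8.37 and 8.27 in wild type, 8.04, 7.56 and 7.87 in mutant and 8.15, 8.33 and 8.23 in rescue. Rescue overlapped wild type and lay above the mutants. The mutant difference of Slc40a1 was -0.58 ± 0.13 (limma adjusted p = 0.00798), and those of rescue were 0.41 ± 0.13 from mutant (adjusted p = 0.0894) and -0.17 ± 0.13 from wild type (adjusted p = 0.648). Clec1b encodes CLEC-2, a lectin of platelets, Kupffer cells and sinusoidal endothelium. It read 8.65, 8.55 and 8.65, then 7.60, 7.76 and 7.82, then 8.0, 8.31 and 8.10, with all 3 groups separate. Clec1b fell by 0.89 ± 0.11 in the mutants (adjusted p = 1.82e-04). The Clec1b difference of rescue from mutant was 0.41 ± 0.11 (adjusted p = 0.0524, called in 5 alternatives) and from wild type -0.49 ± 0.11 (adjusted p = 0.033). The latter was lost with quantile normalization repeated (-0.44, 0.0746), and without rescue replicate 1 (-0.42, 0.118) or 3 (-0.47, 0.119) or wild-type replicate 1 (-0.47, 0.111), 2 (-0.52, 0.0564) or 3 (-0.47, 0.112).

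**Figure D3:**
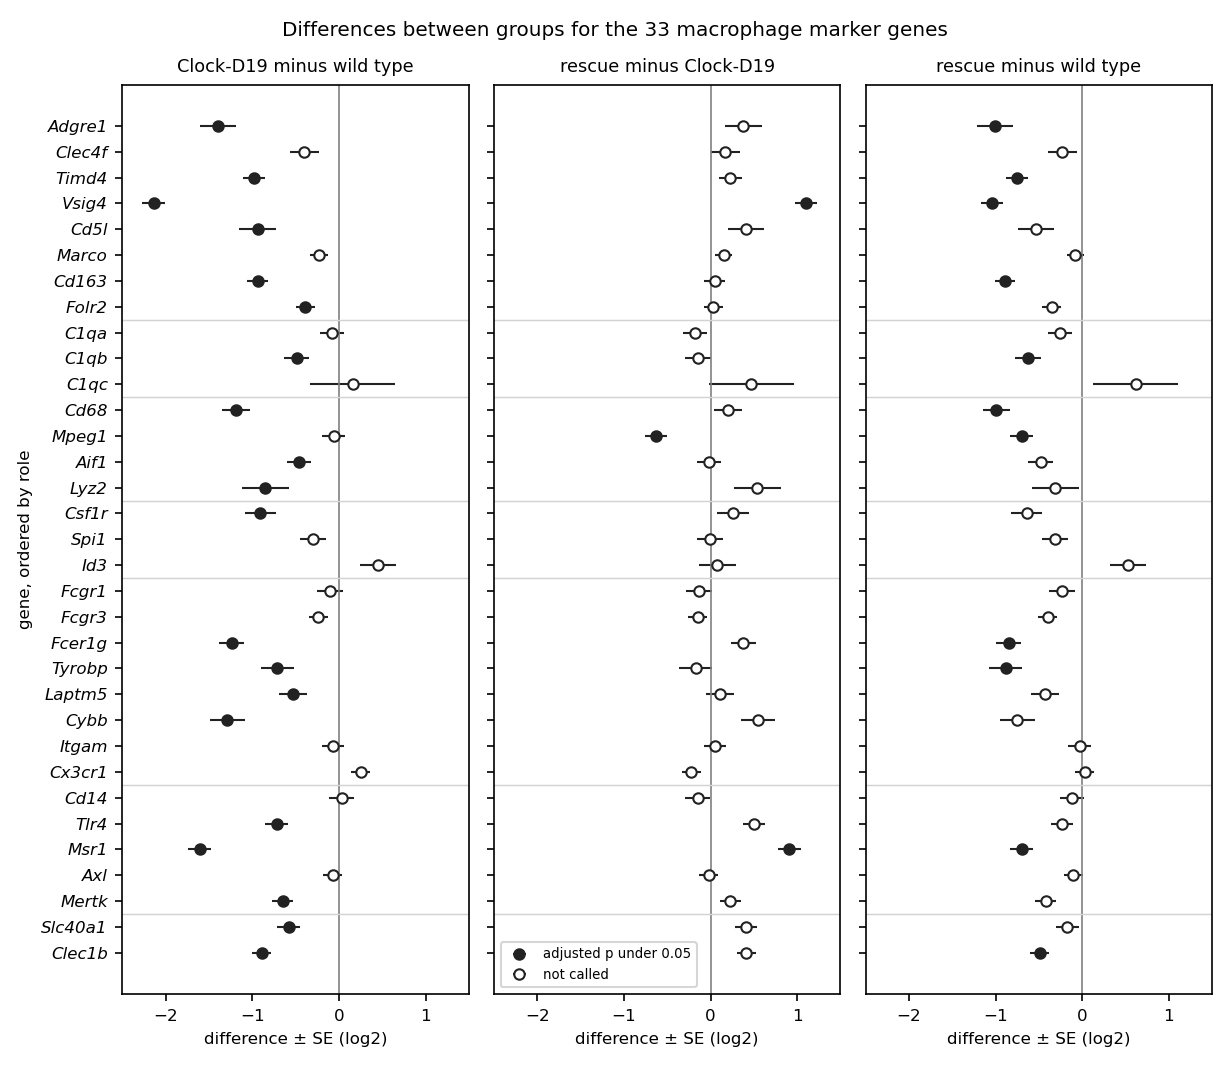
Differences ± SE (log2, limma, n = 3 per group) of the 33 genes for the 3 comparisons, with filled points where the adjusted p is under 0.05. On the left 20 genes are filled, all below 0, from -2.14 for Vsig4 to -0.39 for Folr2; in the middle Vsig4 and Msr1 are filled above 0 and Mpeg1 below; on the right 11 are filled, all below 0.

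Few of the 33 genes were called between rescue and mutant livers. In rescue against mutant, 2 rose (Vsig4 and Msr1), 1 fell (Mpeg1) and 30 were not called, against 2.61% of all genes that rose and 1.2% that fell. The median difference was 0.15, against -0.05 for all genes. Rescue values lay wholly above mutant values for 10 members, and 11.8% of all genes did so. Without wild-type replicate 1 the count of members called was 5, and without mutant replicate 1 or rescue replicate 2 or 3 it was 2, in each case without Mpeg1. In rescue against wild type 11 were lower, none higher and 22 not called, against 1.35% lower and 0.928% higher among all genes, with a median of -0.42 against 0.01. That count was 7 without rescue replicate 2, 5 without rescue replicate 3 and 5 without wild-type replicate 1, and the median was -0.28 without the last. Vsig4, Timd4, Cd163, Cd68 and Fcer1g kept this call in every alternative. An F test over the 3 groups called 18 members and 12.9% of all genes.

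The members also differ in how far other cells share them. Of 14 that macrophages mainly make, 9 fell in the mutants (median -0.70). Of 11 shared by many leukocytes 6 fell (median -0.46), and of 8 shared with endothelium, stellate cells or hepatocytes 5 fell (median -0.61). For rescue against wild type these counts were 7, 2 and 2, with medians of -0.64, -0.40 and -0.20. Differences between the classes were not tested. The mean log2 level of the 14 genes ranged from 7.37 to 7.82 in wild type, 6.81 to 6.88 in mutant and 6.89 to 7.11 in rescue. That of the 8 shared genes ranged from 7.30 to 7.53, 6.83 to 6.93 and 7.12 to 7.22, so that in both classes rescue lay above the mutants and below wild type, with values as close as 6.88 and 6.89 between mutant and rescue in the first.

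Marker lists for other liver cells were read on the same arrays, with 9.02% of all genes lower and 6.37% higher in the mutants as the background. How far macrophages share these genes, Mrc1 and Fcgr2b among them, was not examined. Among 23 endothelial genes, none of them dim in all groups, 12 fell in the mutants and none rose (median -0.45), and their mean level ranged from 7.68 to 7.81 in wild type, 7.27 to 7.31 in mutant and 7.41 to 7.68 in rescue. Bmp2 was at -1.18 ± 0.15, the mannose receptor gene Mrc1 at -0.96 ± 0.13, Kdr at -0.86 ± 0.11 and the inhibitory Fc receptor gene Fcgr2b at -0.84 ± 0.10 (limma adjusted p at most 3.25e-04). In rescue against mutant 4 of the 23 endothelial genes rose, among them Kdr (0.45) and Mrc1 (0.50), against 2.61% of all genes. In rescue against wild type 2 of the 23 were lower, against 1.35% of all genes. Of 15 stellate cell genes 3 fell and 1 rose in the mutants (median -0.08), with Rgs5 at -0.86 ± 0.12, Lrat at -0.81 ± 0.15, Dcn at -0.49 ± 0.10 and Colec11 at 0.31 ± 0.10. Stellate cell genes without overlap were lower in 3 of 15 cases and higher in 4, against 3077 and 4046 of all 19938 genes. Of 16 hepatocyte genes 2 rose, Asgr1 (0.76 ± 0.14) and Hpx (0.57 ± 0.14), the median was 0.11, and the mean level of the list was 11.75 to 11.92 in wild type, 12.03 to 12.09 in mutant and 11.83 to 12.05 in rescue. The part of these values in the macrophage results was not tested.

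**Figure D4:**
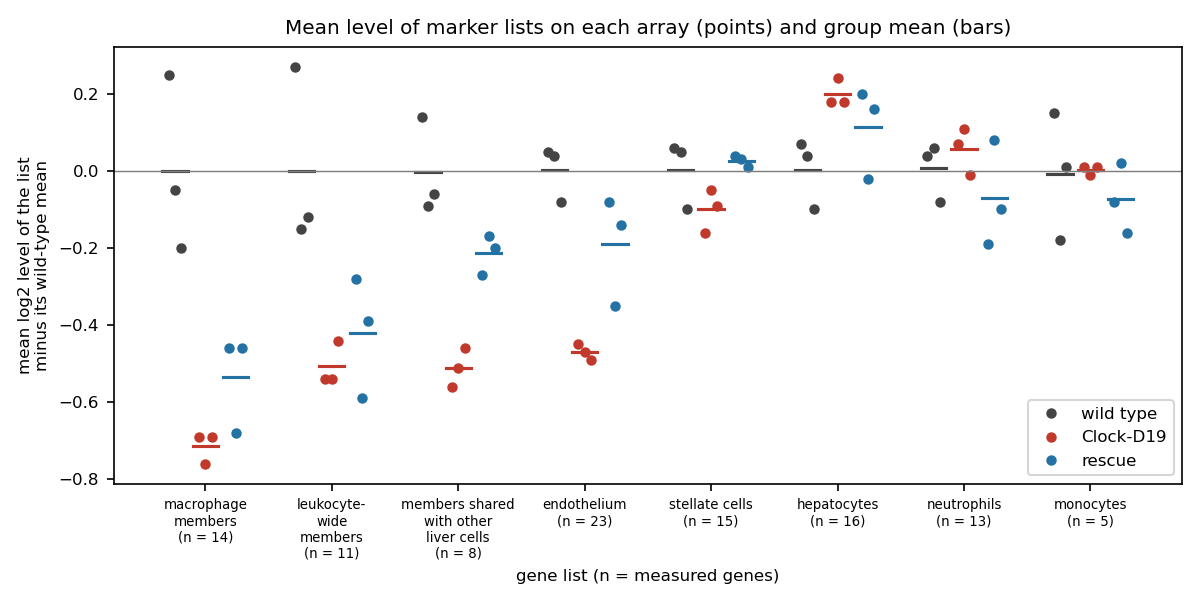
Mean log2 level of each marker list on each array, minus its wild-type mean (points are arrays, bars group means; n is the number of measured genes). The 3 classes of macrophage marker and the endothelial list have their lowest group mean in the Clock-D19 mice, and their rescue mean lies between; for the leukocyte-wide class rescue and mutant arrays overlap, and rescue 2 is the lowest array. The neutrophil and monocyte lists, whose genes were all dim, overlap between wild type and mutant.

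Of further Kupffer cell genes outside the 33, some moved the same way. Of 19 measured, 6 fell and none rose in the mutants (median -0.24). Wfdc17, a small secreted protein of macrophages, was at -1.81 ± 0.14 (limma adjusted p = 4.46e-06), and Sirpa, the receptor for the signal that blocks engulfment, at -0.69 ± 0.11. The complement gene C6 was at -0.66 ± 0.12 and the cathepsin gene Ctsc at -0.52 ± 0.11. Which cells made C6 in these livers was not examined. In rescue against mutant 3 of the 19 rose, including Wfdc17 (0.75 ± 0.14) and C6 (0.76 ± 0.12), against 2.61% of all genes. In rescue 2 were below wild type, Wfdc17 (-1.06 ± 0.14) and Sirpa (-0.58 ± 0.11), against 1.35% of all genes. C6 differed from wild type there by 0.10 ± 0.12 (adjusted p = 0.815). Of 9 transcription factor genes of Kupffer cells 3 fell in the mutants. They were Spic, which directs iron-recycling macrophages (-1.02 ± 0.22, dim in both mutant groups), Zeb2, which keeps tissue macrophages in their identity (-0.89 ± 0.10), and Tfec (-0.77 ± 0.15). Nr1h3, the liver X receptor gene that hepatocytes also express, was at 0.27 ± 0.14 (adjusted p = 0.213). Zeb2 rose in rescue against mutant (0.62 ± 0.10, adjusted p = 0.00698), and Spic stayed lower than in wild type (-0.89 ± 0.22, adjusted p = 0.048).

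Of 15 genes for signals to Kupffer cells 2 fell in the mutants, against 9.02% of all genes. The median of the 15 was -0.01, and 8 of the differences lay below 0. The genes that fell were the adhesion molecule gene Vcam1 (-1.24 ± 0.12) and Pros1, a ligand of MERTK (-0.42 ± 0.12, limma adjusted p = 0.0292). Csf1, a ligand of CSF1R, was at -0.41 ± 0.14 (adjusted p = 0.0692), and Bmp10, dim in every group, at 0.33 ± 0.20 (adjusted p = 0.27). Of 9 antigen presentation genes 4 fell: the class II chains H2-Ab1 (-1.08 ± 0.12) and H2-Aa (-1.03 ± 0.13), the costimulator Cd86 (-0.86 ± 0.14) and the invariant chain Cd74 (-0.84 ± 0.18). Cd74 alone of these rose in rescue against mutant (1.09 ± 0.18, adjusted p = 0.00839), while the other 3 stayed below wild type, at -0.72, -0.68 and -0.71 for H2-Ab1, H2-Aa and Cd86. Of 7 dendritic cell genes 1 fell in the mutants, against 9.02% of all genes, and the median was 0.08. It was Clec9a (-0.70 ± 0.13), which was also the 1 of 7 that rose in rescue against mutant (0.66 ± 0.13, adjusted p = 0.0192), against 2.61% of all genes. Zbtb46 (0.33 ± 0.11, adjusted p = 0.0619) and the dim Flt3 (0.26 ± 0.12) and Itgae (0.14 ± 0.12) differed upward in the mutants and were not called.

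None of 5 monocyte genes was called in any comparison, all of them dim. Among 8 genes of lipid-associated macrophages, Fabp5, a fatty acid binding protein that other cells also make, rose in the mutants (1.0 ± 0.18, limma adjusted p = 0.00183) and was higher in rescue than in wild type (0.90 ± 0.18, adjusted p = 0.0137). Cd63 fell (-0.58 ± 0.13) at a dim level, and Trem2, a lipid-sensing receptor that marks these cells, was at 0.31 ± 0.11 (adjusted p = 0.0804). Of 10 genes common to leukocytes 3 fell in the mutants, Cd48 (-0.92 ± 0.14), Cd52 (-0.91 ± 0.16) and Cd53 (-0.97 ± 0.29). Cd53 ran from 6.32 to 8.09 in wild type and overlapped the mutants, at 6.09 to 6.34. In rescue against mutant 2 of these 10 leukocyte genes rose, against 2.61% of all genes. They were Cd53 (1.11 ± 0.29, adjusted p = 0.0489) and Ptprc, which was named after its values were seen (1.29 ± 0.13, adjusted p = 3.44e-04). None of the 10 differences was below 0.03. The mean level of the leukocyte list, Ptprc included, was 6.70 to 6.82 in wild type, 6.29 to 6.52 in mutant and 6.77 to 6.80 in rescue. In rescue against wild type 1 of the 10 was higher, Ptprc (1.20 ± 0.13), and 1 lower, Cd48 (-0.56 ± 0.14). Among all genes 0.928% were higher and 1.35% lower. For the 10 genes the median of that comparison was -0.14, and 7 of the differences lay below 0. No neutrophil gene of 13 was called in the mutants or in rescue against mutant, and 1 was lower in rescue than in wild type, Cxcr2 (-0.59 ± 0.14, adjusted p = 0.0365), all 13 being dim. In the mutants 1 of 13 lymphocyte genes fell, the dim Cd3g (-0.66 ± 0.15), against 9.02% of all genes, and the median was -0.02. Of 5 bile duct genes none was called.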

How the data were processed

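Liver RNA of 9 mice, 1 array each, was read from the deposited value table. Its values are log2 levels that the authors made with RMA (background correction, quantile normalization, probe set summary) in Affymetrix Expression Console, per the submitters' processing notes; no label states a version or the log base, which was taken as 2 because the largest value is 13.86. Normalizing all arrays together removes any difference in total RNA. Of 35556 probe sets, 21789 carried 1 gene symbol in the platform annotation, 1621 several and 12146 none. For each gene the probe set of highest mean among those with 1 symbol was used, leaving 19938 genes.

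Groups came from the labels, which describe separate animals. All 9 arrays were fitted together with limma 3.58.1 in R 4.3.3, with group means only, 3 contrasts, residual df 6 and Benjamini-Hochberg adjustment over 19938 genes; a call is an adjusted p under 0.05. The fit was tested on simulated data with known changes. With 3 arrays a group the number of arrays limits the precision of every difference.

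The 33 members and the other lists were chosen with earlier results of these data known. Every member is named, and of each other list up to 4 measured genes of smallest p in mutant against wild type. Alternatives were a repeated quantile normalization, median centring, a filter on the dimmest 40% of genes, a trended and robust prior, array weights, removal of a trend with gene span, the mean of a gene's probe sets, a replicate block, 2 groups alone, and leaving out each array. Promoter windows and gene positions came from RefSeq tables of build GRCm38.p6, with members matched by gene ID; figures were drawn with matplotlib 3.10.9.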

Additional observations from a re-analysis of the deposited data

How the results depend on the processing

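Of 588 single-gene values under alternatives in each comparison, none reversed a call; a call was lost in 30, 3 and 25 (mutant against wild type, rescue against mutant, rescue against wild type) and gained in 3, 15 and 11. For mutant against wild type, 15 to 20 members were called under all alternatives. All were lower except Id3, called higher with the replicate block and without mutant replicate 1. For rescue against mutant the count rose from 3 to 5 (4 higher, 1 lower) with median centring, with the trended and robust prior, with the gene span trend removed and with the 2 groups alone, and ranged from 2 to 5 when 1 array was left out. For rescue against wild type, leaving out 1 array gave 5 to 11 calls and a median difference from -0.506 to -0.277. The causes were not tested. Whether replicate numbers pair the arrays was not settled. Correlations of the deviations of same-numbered arrays ran from -0.11 to 0.19. For 4 of 9 arrays the best match in both other groups carried the same number. With the replicate block 20 (19 lower, 1 higher), 4 and 12 members were called in the 3 comparisons. The F test then called 20, against 18 without the block. Gene span correlated with the mutant difference (Spearman rho -0.24 across 19855 genes, which are not independent), and the median span was 17203 bases for members and 17737 for all genes. Precision rests on 3 arrays a group, and the differences of members near background may be compressed.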

Other observations

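Ptprc, which encodes CD45 on all leukocytes, was picked after its values were seen and is no member. It read 7.0, 6.55 and 6.90 in wild type, 6.75, 6.90 and 6.54 in mutant and 8.18, 7.93 and 7.95 in rescue, so every rescue value lay above every other array. Rescue exceeded mutant by 1.29 ± 0.13 (limma adjusted p = 3.44e-04) and wild type by 1.20 ± 0.13 (adjusted p = 2.71e-04), while mutant and wild type differed by -0.09 ± 0.13 (adjusted p = 0.7). The leukocyte list as a whole did not share this rise above wild type. Of its 10 genes Ptprc alone was called higher there, Cd48 was lower (-0.56 ± 0.14), and the median was -0.14.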
